A study of Equus caballus with 21 samples.

Results

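Transcripts of 4 annexins (ANXA1, ANXA2, ANXA4 and ANXA5) and 3 S100 proteins (S100A6, S100A10 and S100A11) were followed across laser-captured compartments of horse endometrium taken on day 12, either of pregnancy or of the estrous cycle. These 7 genes were chosen by name, from 24942 gene IDs in the count table, and all 7 were found there. ANXA2 (Entrez ID 100054320) and S100A6 (Entrez ID 100033887) were singled out because both stood among the genes higher in pregnant than in cyclic luminal epithelium, so values of that comparison are given for all 7 as a description. Where calls of these genes in it are named, they are part of the choice and no support is drawn from them. The question the study put was how each endometrial compartment differs between early pregnancy and the cycle.

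The libraries came from uterine biopsies of healthy warmblood mares whose ovulation had been induced with human choriogonadotropin in both kinds of cycle. Pregnant libraries came from cycles with insemination by fresh cooled semen the day before ovulation, and cyclic libraries from control cycles without it. Prostaglandin F2 alpha was given on day 12 to end each experiment, and the labels do not say whether it preceded the biopsy. Pregnant and cyclic groups held 2 and 2 stroma (S) libraries, 4 and 5 luminal epithelium (LE) libraries, and 4 and 4 glandular epithelium (GE) libraries. The library labels distinguish 5 mares by letter (B, C, J, M, U), although 6 mares are mentioned in the description of the design. A letter shared by libraries was read as the same animal, and each library was 1 captured compartment of 1 biopsy.

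Annexins are cytosolic proteins that bind acidic phospholipids of membranes when calcium is present, and take part in exocytosis, membrane repair and the anchoring of actin to membranes. S100 proteins are small calcium sensors with paired EF-hand loops, and several act by binding an annexin. A dimer of S100A10 holds a pair of annexin A2 molecules in a complex that binds plasminogen at the cell surface, and S100A11 binds annexin A1. In the uterus the luminal epithelium is the surface the conceptus meets, and annexins and S100 proteins of that epithelium are among the calcium-binding proteins studied around implantation.

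Total counts ran from 136259 to 1467510 per library, and the libraries were made from very little RNA with a single-cell kit and an extra amplification for some that the labels do not name. The share of counts on ribosomal RNA genes ran from 0.351% to 67.1%. In the pregnant luminal and cyclic glandular libraries of mare M, it was 0.453% and 0.351%, against 8.32% or more in every other epithelial library. The authors left both out of 1 of their deposited tables, so for some results that rest on them, values without them are given as well. Markers fitted the compartment labels in part: the summed level of 4 gland genes ran from 14383 to 52859 CPM in glandular libraries and reached at most 5593 CPM elsewhere, but most of that sum was P19, and 2 of the 4 ran otherwise. SERPINA14, the uterine serpin, averaged 853 CPM in pregnant and 181 CPM in cyclic lumen, against 16.3 CPM in pregnant and 2.75 CPM in cyclic glands. FOXA2, a defining gland transcription factor, had no counts in any group. The 3 measured epithelial markers (CDH1, EPCAM and KRT18) summed to 59.9 to 548 CPM in the 4 stromal libraries, so epithelial transcripts were present there. Levels below are counts scaled to a common library total (CPM) after TMM scaling, a correction for differences in composition. A count of 0 in a library allows up to 3 counts, which is 1.69 to 20.5 CPM depending on the library. Levels are not corrected for transcript length and so are compared between libraries, never between genes. In captured tissue, fewer cells of a type and less RNA per cell cannot be told apart.

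ANXA2, whose protein bridges membranes and actin and carries the complex with S100A10, was high in every pregnant luminal library. Its level was 1206 in mare B, 618 in mare C, 938 in mare M and 1208 in mare U in pregnant luminal epithelium, and 159.8 in mare B, 239 in mare C, 194 in mare J, 37.5 in mare M and 82.6 in mare U in cyclic luminal epithelium (CPM). All 4 pregnant libraries lay above all 5 cyclic libraries, and in mares B, C, M and U the pregnant library exceeded the cyclic library of the same animal. The means were 992 ± 280.0 CPM (SD, n = 4) in pregnant and 143 ± 82.0 CPM (SD, n = 5) in cyclic luminal epithelium, a log2 fold change of 2.78 ± 0.70 (SE, from edgeR). Groups without overlap and higher in pregnancy were seen for 66 of the 4344 genes that passed the filter on low counts (1.52%).

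ANXA1, a glucocorticoid-regulated protein that limits inflammation through formyl peptide receptors, was also higher in the pregnant library of each mare, with some overlap between the groups. It stood at 392 in mare B, 835 in mare C, 1679.7 in mare M and 557 in mare U in pregnant, and at 282 in mare B, 299 in mare C, 410.1 in mare J, 25.01 in mare M and 332 in mare U in cyclic luminal epithelium (CPM). The lowest pregnant library, of mare B, lay below the cyclic library of mare J, while all 4 mares with both states had the higher value in pregnancy. Its log2 fold change was 1.66 ± 0.68 (SE), and mare M, with the highest pregnant and the lowest cyclic value, spread furthest. Under 18 alternative settings, leaving out the pregnant library of mare M among them, it ran from 1.09 to 1.96.

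ANXA4, an annexin abundant in secretory epithelia, did not separate the states. Luminal levels were 159 in mare B, 7.07 in mare C, 299 in mare M and 82.6 in mare U in pregnancy, and 114 in mare B, 50.1 in mare C, 52.2 in mare J, 447 in mare M and 6.61 in mare U in the cycle (CPM). The ranges overlapped almost entirely, and the mares split evenly, 2 higher and 2 lower in pregnancy, with a log2 fold change of 0.08 ± 1.10 (SE). ANXA5, which binds phosphatidylserine and can shield it from clotting factors, was low in the lumen in both states. Its levels were 10.2 in mare B, 23.6 in mare C, 5.15 in mare M and 20.6 in mare U in pregnant, and 8.30 in mare B, 17.0 in mare C, 16.8 in mare J, 18.8 in mare M and 41.3 in mare U in cyclic luminal epithelium (CPM). These groups overlapped, again with 2 mares higher and 2 lower, and ANXA5 did not pass the filter on low counts in this comparison.

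S100A6, also called calcyclin, binds several annexins and the ubiquitin-ligase adaptor CACYBP. It reached 758 in mare B, 7.07 in mare C, 438 in mare M and 428 in mare U in pregnant luminal epithelium, against 78.9 in mare B, 9.85 in mare C, 13.05 in mare J, 3.13 in mare M and 1.65 in mare U in cyclic luminal epithelium (CPM). Pregnant libraries of mares B, M and U stood far above every cyclic library, whereas the pregnant library of mare C was as low as the cyclic ones and slightly below the cyclic library of the same mare. The means were 408 ± 308 CPM (SD, n = 4) and 21.3 ± 32.5 CPM (SD, n = 5), with a log2 fold change of 4.26 ± 1.03 (SE).

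S100A11, the S100 partner of annexin A1, was higher in pregnancy in all 4 mares with both states. Luminal levels were 136 in mare B, 358 in mare C, 639 in mare M and 61.9 in mare U in pregnancy, and 58.1 in mare B, 58.2 in mare C, 116 in mare J, 3.13 in mare M and 11.6 in mare U in the cycle (CPM). Only the pregnant library of mare U fell within the cyclic range, whose upper end was set by mare J, and the log2 fold change was 2.53 ± 1.04 (SE). Under the same 18 alternative settings it ran from 1.82 to 3.18. S100A10, the annexin A2 ligand, did not follow ANXA2 in the lumen. It was 0 in mare B, 2.36 in mare C, 345 in mare M and 31.0 in mare U in pregnant, and 4.15 in mare B, 15.2 in mare C, 46.6 in mare J, 3.13 in mare M and 0 in mare U in cyclic luminal epithelium (CPM). The pregnant library of mare M, with little ribosomal RNA, was far above the other 8, and that of mare B, high in ANXA2, had no S100A10 count, which allows up to 7.69 CPM. S100A10 did not pass the filter on low counts here.

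**Figure D1:**
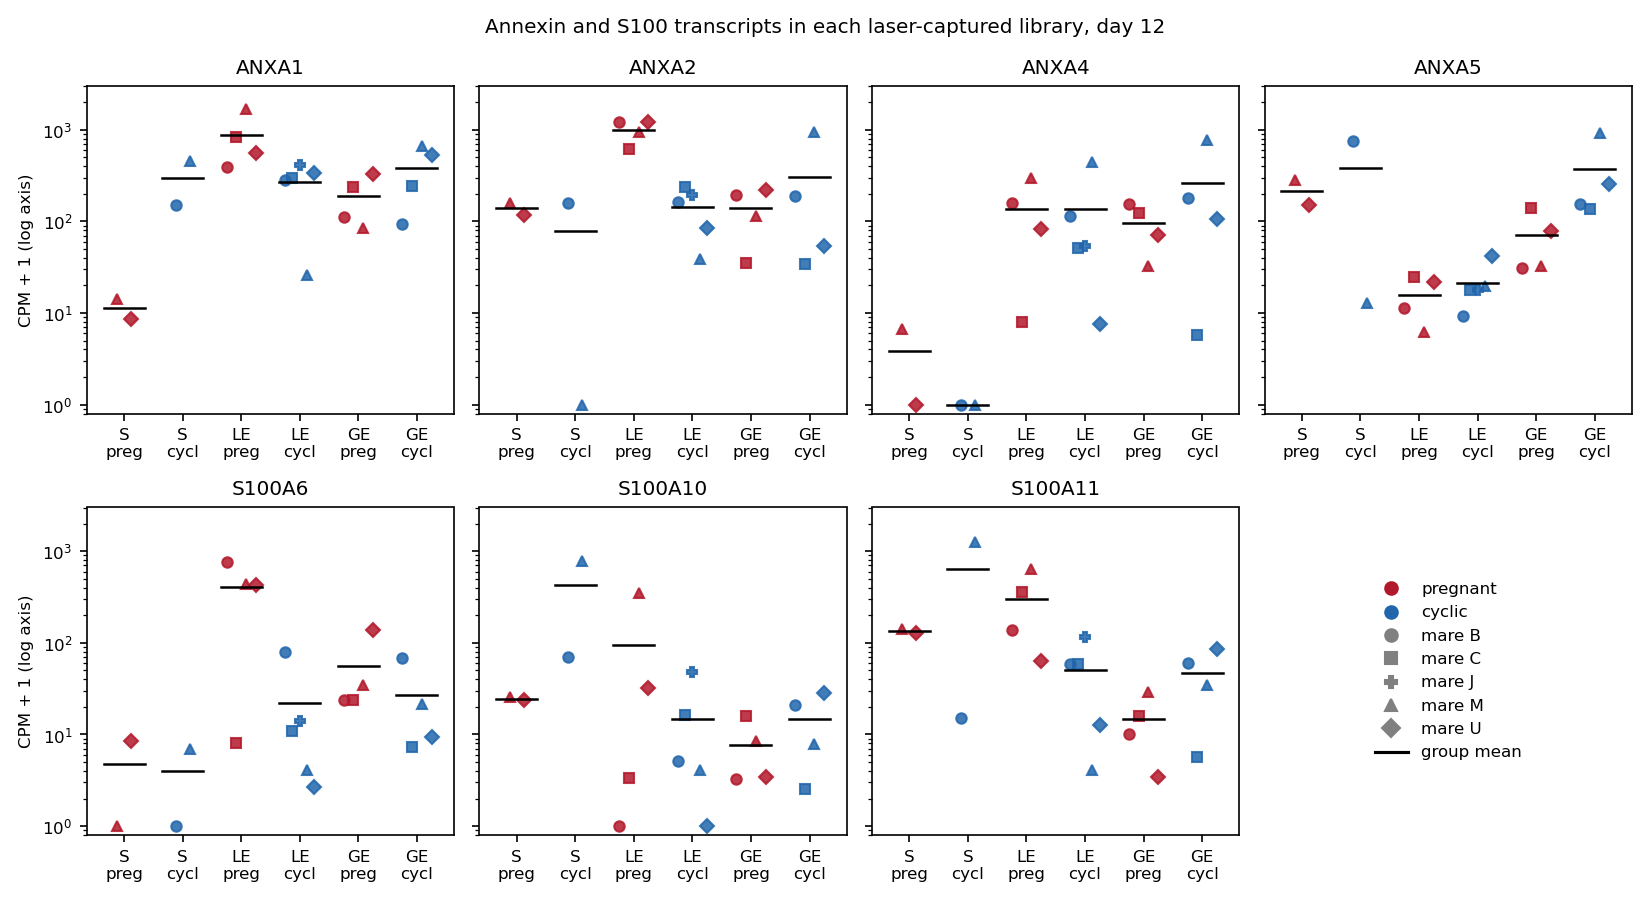
Level of each of the 7 genes in each of the 21 libraries, as CPM + 1 on a log axis, with pregnant left of cyclic within stroma (S), luminal (LE) and glandular epithelium (GE); symbols mark mares and black lines group means. The 4 pregnant luminal libraries of ANXA2 sit between 618 and 1208 CPM, above all 5 cyclic ones, which reach 239 CPM.

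Of the 7 genes, 5 passed the filter in the luminal comparison, all 5 with a positive log2 fold change, against a median of -0.04 over all 4344 genes. ANXA2 and S100A6 were chosen for being higher here, so no support is drawn from the shared direction. ANXA4, at 0.08, changed sign in 6 of 18 alternative settings. The share of all genes with a positive value is not given here. Genes past an adjusted p of 0.05 (edgeR, quasi-likelihood, adjusted by Benjamini-Hochberg) numbered 19 (0.437%), of which 15 were higher in pregnancy (0.345%), and ANXA2 and S100A6, the 2 genes used in the choice, were among these. At the edge of that threshold, DOCK8 lay just inside and GOLIM4 just outside, at adjusted p = 0.0482 and 0.0513 in the same edgeR test. Leaving out 1 library at a time, the log2 fold change ran from 2.54 to 3.04 for ANXA2 and from 3.74 to 4.70 for S100A6, which did not pass the filter on low counts without the cyclic library of mare B. Without the pregnant library of mare M it was 2.80 for ANXA2 and 4.22 for S100A6, and with the mare as a block 3.25 and 4.50. Since these values chose both genes, their place among the 15 is part of the choice and supports nothing.

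Other cell type markers also differed between the luminal groups. The summed level of 5 leukocyte markers, all 5 with counts in both groups, ran from 5.12 to 89.6 CPM in pregnant and from 101 to 334 CPM in cyclic libraries, without overlap. The share of all genes lower in pregnancy without overlap is not given here. PTPRC had the highest mean of the 5 in both groups, 19.3 CPM in pregnant and 117 CPM in cyclic. Means of CSF1R, CD68 and CD163 were also lower in pregnant libraries. CD3E ran the other way, at 5.15 CPM in pregnant and 0.689 CPM in cyclic, on 4 and 3 counts. The 3 measured epithelial markers summed to 679 to 2123 CPM in pregnant and to 338 to 1219 CPM in cyclic libraries, with overlap. Of these, CDH1, the epithelial cadherin, averaged 441 CPM in pregnant and 41.3 CPM in cyclic luminal epithelium. EPCAM, an adhesion molecule, averaged 768 CPM in pregnant and 554 CPM in cyclic, and KRT18, a keratin, 125 CPM in pregnant and 179 CPM in cyclic luminal epithelium. The summed fibroblast markers ran from 399.9 to 4472 CPM in pregnant and from 387 to 1303 CPM in cyclic luminal libraries. In stroma they ran from 3165 to 4605 CPM in pregnant and from 3976 to 9198 CPM in cyclic libraries. The pregnant luminal library of mare M, at 4472 CPM, exceeded the stroma of the same biopsy, at 3165 CPM, so transcripts of some fibroblast markers were present there. Only 3 of the 5 measured fibroblast markers had counts in that luminal library. By group mean, COL1A1 was higher in pregnant lumen, at 1271 CPM, than in pregnant stroma, at 1152 CPM. COL1A2, DCN, LUM and PDGFRA were lower in pregnant lumen, DCN at 36.4 CPM against 850 CPM and PDGFRA with no counts. The part of these marker differences in the levels of the annexins and S100 genes was not tested.

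In glandular epithelium none of the 7 genes passed the test between the states. ANXA2 stood at 191 in mare B, 34.0 in mare C, 115 in mare M and 217 in mare U in pregnant, and at 187 in mare B, 32.8 in mare C, 955 in mare M and 52.3 in mare U in cyclic glands (CPM). Apart from the cyclic library of mare M, the groups covered a similar range, and the log2 fold change of -1.01 ± 0.96 (SE) became 0.67 without that library. S100A6 was 22.8 in mare B, 22.7 in mare C, 33.9 in mare M and 138 in mare U in pregnant, and 67.5 in mare B, 6.26 in mare C, 20.5 in mare M and 8.37 in mare U in cyclic glands (CPM). Here 3 of 4 mares were higher in pregnancy, with overlapping groups and a log2 fold change of 1.11 ± 1.48 (SE).

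ANXA5 had the lowest log2 fold change of the 6 members tested in glands. It was 29.6 in mare B, 139.9 in mare C, 32.0 in mare M and 77.2 in mare U in pregnant, and 155 in mare B, 136 in mare C, 921 in mare M and 257 in mare U in cyclic glands (CPM). The pregnant libraries of mares B, M and U lay below every cyclic library and that of mare C within their range, so the groups overlapped by 1 library. The log2 fold change was -2.34 ± 0.97 (SE; edgeR quasi-likelihood adjusted p = 0.455), and became -1.40 when mare M's cyclic glands were left out.

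ANXA1 in glands was 112 in mare B, 237 in mare C, 84.6 in mare M and 328 in mare U in pregnancy, and 92.2 in mare B, 241 in mare C, 669 in mare M and 531 in mare U in the cycle (CPM), with a log2 fold change of -0.97 ± 0.87 (SE). ANXA4 was 153 in mare B, 122 in mare C, 32.0 in mare M and 70.0 in mare U in pregnant, and 181 in mare B, 4.69 in mare C, 764 in mare M and 105 in mare U in cyclic glands (CPM), with a log2 fold change of -1.39 ± 1.03 (SE). For both genes the cyclic library of mare M was the highest of the 8, and the other libraries overlapped. S100A11 was 9.12 in mare B, 14.7 in mare C, 28.2 in mare M and 2.41 in mare U in pregnant, and 59.3 in mare B, 4.69 in mare C, 34.1 in mare M and 85.8 in mare U in cyclic glands (CPM), with a log2 fold change of -1.68 ± 1.54 (SE). S100A10 was 2.28 in mare B, 14.7 in mare C, 7.52 in mare M and 2.41 in mare U in pregnant, and 19.8 in mare B, 1.56 in mare C, 6.82 in mare M and 27.2 in mare U in cyclic glands (CPM), too few counts to pass the filter. Both S100 genes overlapped between the states, with mares on either side.

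Across the transcriptome 3 of 4816 genes (0.0623%) passed edgeR's quasi-likelihood test in glands, and 0 of the 6 members tested did. At an unadjusted p under 0.05 the same test had 350 genes (7.27%) and 1 of the 6 members, ANXA5, and DESeq2 and limma-voom called 0 members. Their median log2 fold change was -1.202, beside 0.07 over all genes tested, and 5 of the 6 were negative. ANXA1, ANXA2, ANXA4 and ANXA5 were all highest in the cyclic library of mare M, with 0.351% of its counts on ribosomal RNA. The summed level of the 3 epithelial markers was also highest there, at 14874 CPM, with 1416 to 1722 CPM in the other cyclic glandular libraries, and their part in the annexin levels was not tested. Without that library ANXA1 and ANXA4 had log2 fold changes of -0.60 and -0.02.

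**Figure D2:**
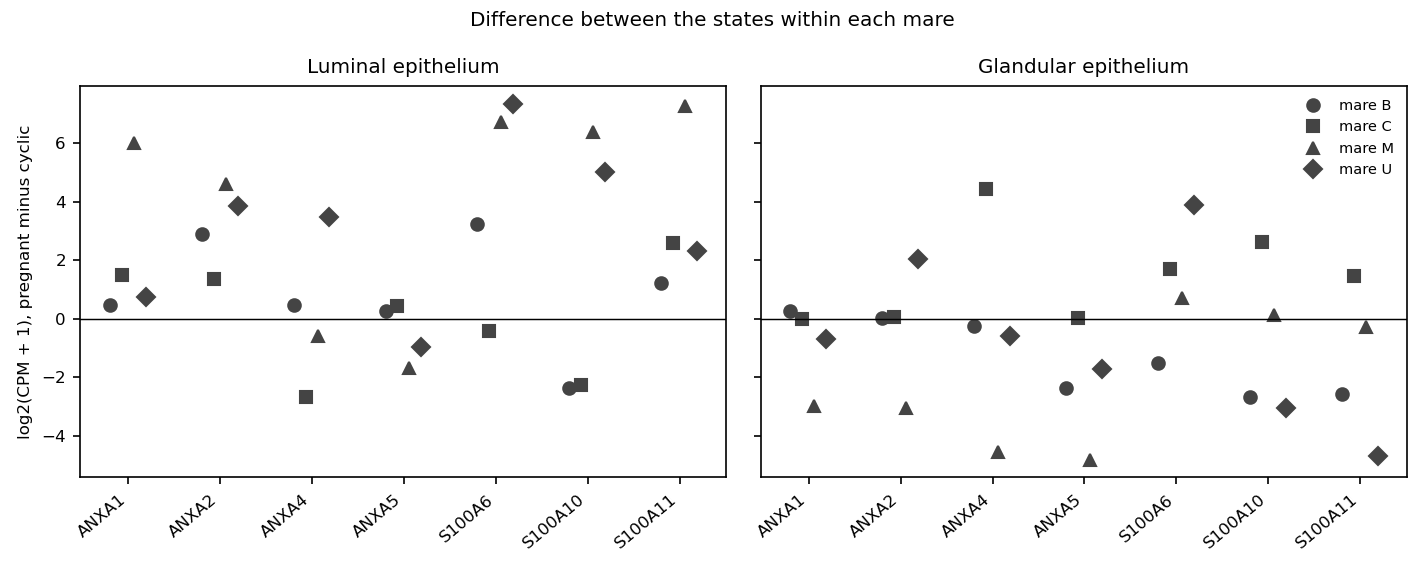
Difference between pregnant and cyclic libraries of the same mare for each gene, in log2(CPM + 1), in luminal (left) and glandular epithelium (right); each symbol is 1 mare. ANXA1, ANXA2 and S100A11 lie above 0 in all 4 mares in the lumen, whereas in glands every gene has mares on both sides of 0.

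The difference of the pregnancy effects, glandular minus luminal, contains the luminal comparison the choice was made from and was therefore read as a description. It was negative for all 7 genes, from -5.16 ± 2.22 for S100A11 and -3.10 ± 1.36 for ANXA2 to -0.63 ± 1.93 for ANXA4 on the log2 scale (SE), while the median over all 6884 genes was 1.28. That median depended on the setting, at 0.39 without the biopsy as a block and 0.84 with library totals alone. Among 6884 genes, 1 (0.0145%) passed in edgeR's quasi-likelihood test and 0 of the 7 did, 3 of them being under an unadjusted p of 0.05 (ANXA1, ANXA2 and S100A11), as were 381 genes in all (5.53%). DESeq2 called 1 of the 7, S100A11, among 78 genes (1.13%), and limma-voom called 0 of the 7. An effect of pregnancy on these genes in the lumen was thus not shown by edgeR to differ from that in glands.

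Between luminal and glandular epithelium of the same biopsies, ANXA5 was lower in the lumen. Counts were summed per mare and compartment over the 8 biopsies with both, from mares B, C, M and U, and tested with the mare as a block. Of 7174 genes 498 (6.94%) passed, and of the members ANXA5 was among the 262 lower in the lumen (3.65%) and ANXA2 among the 236 higher (3.29%). The luminal libraries of this comparison are ones from which ANXA2 and S100A6 were chosen, so the values of these 2 genes here are a description and their calls support nothing.

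ANXA5 was lower in the lumen than in the glands of all 8 biopsies. Luminal values of 5.15 to 41.3 CPM, over the 9 luminal libraries, stood against 29.6 to 921 CPM in the 8 glandular libraries. The highest luminal library, the cyclic one of mare U, lay above the pregnant glandular libraries of mares B and M but below its own glands at 257 CPM, and the other 8 luminal libraries lay below every glandular library. The log2 fold change, luminal minus glandular, was -3.22 ± 0.93 (SE; edgeR quasi-likelihood adjusted p = 0.011). It was -3.02 without mare M (edgeR adjusted p = 0.0382). Leaving out both libraries with little ribosomal RNA gave the same fit, since each biopsy of mare M then lacked 1 compartment. The call was lost without mare B or mare C (edgeR adjusted p = 0.129 and 0.1, log2 fold changes -3.09 and -3.35) and under limma-voom (adjusted p = 0.123). With the biopsy as the block it was lost as well, at -2.91 (edgeR adjusted p = 0.0708). Neither state passed alone, with -2.07 in pregnant and -3.77 in cyclic biopsies (edgeR adjusted p = 0.761 and 0.061).

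ANXA2 was higher in the lumen in 6 of 8 biopsies. All 4 pregnant biopsies had the higher value in the lumen, and of the cyclic biopsies those of mares C and U did, while mares B and M had the higher value in glands. The log2 fold change was 1.87 ± 0.53 (SE) over both states, 3.13 in pregnant biopsies alone and -0.037 in cyclic biopsies alone. Leaving out mare B, C, M or U gave 1.89, 1.38, 2.31 or 1.81. The edgeR call was absent without mare B, C or U, without a block, with the biopsy as the block and in cyclic biopsies alone.

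The other 5 genes did not pass between luminal and glandular epithelium. S100A11 was higher in the lumen in all 4 pregnant biopsies and in 1 of 4 cyclic ones, with a log2 fold change of 1.81 ± 1.04 (SE) over both states and 4.43 in pregnant biopsies alone (edgeR quasi-likelihood adjusted p = 0.0388, where 130 of 3988 genes passed, 3.26%). In cyclic biopsies alone it was -0.79. S100A6 had a log2 fold change of 1.49 ± 0.84 (SE) and was higher in the lumen in 5 of 8 biopsies. ANXA1 had 1.08 ± 0.49 (SE) with 6 of 8 biopsies higher in the lumen. ANXA4 and S100A10, at -0.47 ± 0.70 and 0.10 ± 1.96 (SE), had biopsies on both sides. The median of the 7 was 1.08, beside -0.25 over all genes tested.

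ANXA4 and S100A6 had hardly any counts in stroma. Stromal libraries and the epithelial libraries of the same 4 biopsies (cyclic B and M, pregnant M and U) were compared with counts summed per mare. ANXA4 had 3 counts in all stromal libraries, against 288 in luminal and 378 in glandular epithelium of these biopsies. The luminal over stromal ratio of summed CPM was 86.8 and the glandular over stromal ratio 68.3, with exact (Clopper-Pearson) 95% counting intervals of 29.4 to 423 and 23.2 to 333. S100A6 also had 3 counts in stroma, against 290 in luminal and 160 in glandular epithelium. Its ratios were 87.4 (29.6 to 426) and 28.9 (9.72 to 142), luminal and glandular over stromal, with the same intervals, which cover counting error only. Of its luminal counts, 85 and 166 came from the pregnant libraries of mares M and U, which are among those the gene was chosen on. Both genes were lower in stroma than in glands in all 4 biopsies. Against the lumen ANXA4 was lower in stroma in all 4 and S100A6 in 3 of 4, the cyclic biopsy of mare M having 5.99 CPM in stroma and 3.13 CPM in lumen.

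ANXA5 ran the other way against the lumen, and S100A10 against glands. ANXA5 was 279 in mare M and 150.2 in mare U in pregnant stroma, and 749.9 in mare B and 12.0 in mare M in cyclic stroma (CPM). The cyclic library of mare M was low and the other 3 lay above every luminal library. Stroma minus luminal, the log2 fold change was 4.45 ± 1.61 (SE; edgeR quasi-likelihood adjusted p = 0.174), and stroma was higher in 3 of 4 biopsies. Against glands ANXA5 was higher in stroma in 3 of 4 biopsies, at a log2 fold change of 1.16. It was -1.47 in cyclic biopsies alone, where mare M had 12.0 CPM in stroma and 921 CPM in glands. S100A10 was 24.5 in mare M and 22.5 in mare U in pregnant, and 69.8 in mare B and 778 in mare M in cyclic stroma (CPM). Stroma was higher than glands in all 4 biopsies for S100A10, with a log2 fold change, stroma minus glandular, of 3.32 ± 2.57 (SE; edgeR quasi-likelihood adjusted p = 0.789). Against the lumen S100A10 was higher in stroma in 2 of 4 biopsies. The lumen was higher in both pregnant biopsies, at 345 CPM in mare M and 31.0 CPM in mare U.

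S100A11 was 141 in mare M and 128 in mare U in pregnant, and 13.95 in mare B and 1269.5 in mare M in cyclic stroma (CPM). The cyclic library of mare M was by far the highest of all 21 libraries for S100A11 and for S100A10, and the same library had no count of ANXA2. ANXA2 stood at 158 in mare M and 116 in mare U in pregnant, and at 157 in mare B and 0 in mare M in cyclic stroma (CPM), lower than the lumen in all 4 biopsies. ANXA1 was 13.2 in mare M and 7.51 in mare U in pregnant, and 149.98 in mare B and 449 in mare M in cyclic stroma (CPM). With log2 fold changes of -1.57 ± 1.19 for ANXA2 and -2.78 ± 1.37 for ANXA1, stroma minus luminal (SE), neither passed the test.

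Between stroma and the epithelia few genes passed edgeR's quasi-likelihood test. They were 61 of 3512 (1.74%) between stroma and lumen and 63 of 4830 (1.3%) between stroma and glands, with 0 of the 7 members in each. At an unadjusted p under 0.05 edgeR had 362 genes (10.3%) against the lumen, 4 of them members (ANXA1, ANXA4, ANXA5 and S100A6), and 480 genes (9.94%) against glands, 1 of them a member (ANXA4). Against the lumen DESeq2 called 474 genes (13.5%), with ANXA4, ANXA5 and S100A6 among them, and limma-voom called 0 members. The luminal libraries of this comparison include ones S100A6 was chosen on, so its unadjusted p and its DESeq2 call here support nothing. Against glands ANXA4 was the 1 member called by DESeq2, among 526 genes (10.9%), and by limma-voom, among 223 genes (4.62%). Without the mare as a block edgeR called ANXA5 against the lumen (adjusted p = 0.0359), among 89 genes (2.53%). The median log2 fold changes of the 7 were -1.57 against the lumen and -0.71 against glands, beside -0.60 and -1.07 over all genes tested.

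Between pregnant and cyclic stroma, 0 of 2212 genes (0%) passed edgeR's quasi-likelihood test, and 88 (3.98%) had an unadjusted p under 0.05. None of the 5 members tested was among those 88, and DESeq2 and limma-voom called 0 members. With 2 libraries a state, ANXA1 and S100A10 were lower in both pregnant than in both cyclic libraries. Groups without overlap in that direction were found for 267 of 2212 genes (12.1%). The log2 fold changes were -4.64 ± 2.95 for ANXA1 and -3.96 ± 2.48 for S100A10 (SE). ANXA4 and S100A6 were at or under 3 counts in both states, and no fold is given. Ribosomal RNA took 67.1% of the counts in the pregnant library of mare M and 0.82% in that of mare U, against 30.9% in the cyclic library of mare B and 7.36% in that of mare M.

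**Figure D3:**
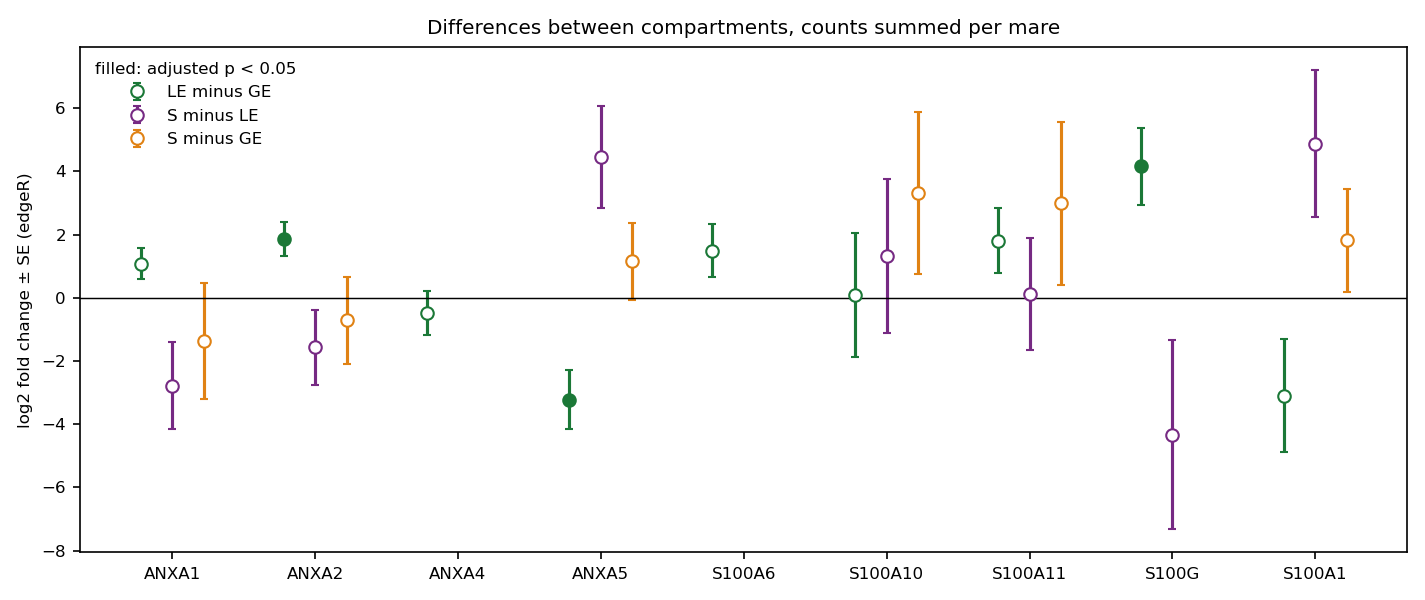
Log2 fold change with SE from edgeR for differences between compartments, for the 7 genes and for S100G and S100A1; filled points passed an adjusted p of 0.05. ANXA4 and S100A6 are not drawn for stroma, where they had 3 counts, and ANXA2, ANXA5 and S100G are the filled points, all for luminal minus glandular epithelium.

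Ordered by mean level, the groups differed from gene to gene. For ANXA2, S100A6 and ANXA1, pregnant luminal epithelium ranked first of the 6 groups. For ANXA5, S100A10 and S100A11, cyclic stroma ranked first, in each case carried by 1 of its 2 libraries. For ANXA4, cyclic glands ranked first at 264 ± 341 CPM, with pregnant lumen at 137 ± 125 CPM, cyclic lumen at 134 ± 179 CPM, pregnant glands at 94.1 ± 53.7 CPM (SD, n = 4, 4, 5 and 4) and stroma last. Epithelial groups next to each other in the ANXA4 order differed by less than the larger of their SDs. Likewise the cyclic lumen and pregnant gland levels of ANXA2, 143 ± 82.0 and 139 ± 82.6 CPM (SD, n = 5 and 4), lay within 1 SD of each other.

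Over all 21 libraries, the levels of the 7 genes were only loosely related, and the points share mares, biopsies and depth. On log2 CPM, Pearson's r was 0.58 between ANXA2 and S100A6, both high in pregnant lumen, and 0.55 between ANXA4 and S100A6, both near 0 in stroma. ANXA2 and S100A6 were chosen on the luminal libraries among these, so the r between them is a description and supports nothing. ANXA2 and its ligand S100A10 had r = -0.26, with a rank correlation of -0.04. Without the 2 libraries farthest from the median of ANXA2 their r was 0.14. It was -0.03 without the 2 farthest from the median of S100A10. S100A10 and S100A11, neighbouring genes, had r = 0.65, which fell to 0.31 without the 2 libraries farthest from the median of S100A10. S100A6 lies between S100A5 and S100A7, and neither of those had a count in any library.

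Genes with the most similar pattern were sought among 9789 genes that passed the filter over the 6 groups, by Pearson's r over the 21 libraries. For ANXA2 these were IQGAP1 (r = 0.81), a scaffold of actin and calmodulin, TRIP12 (r = 0.75), a ubiquitin ligase, and VAMP3 (r = 0.72), a vesicle SNARE. For S100A6 they were TM7SF3 (r = 0.86), CKMT1B (r = 0.80), a mitochondrial creatine kinase, and ZNF330 (r = 0.77). For the other members they were CFAP210 for ANXA1 (r = 0.76), DSP, the desmosomal plaque protein desmoplakin, for ANXA4 (r = 0.80), MAOA, a monoamine oxidase, for ANXA5 (r = 0.77), NEXN, an actin-binding protein, for S100A10 (r = 0.77) and CNP for S100A11 (r = 0.83). Leaving out the 2 libraries farthest from the member's median took IQGAP1 to 0.65, TRIP12 to 0.56, MAOA to 0.62 and NEXN to 0.45, while ZNF330 rose to 0.84. These genes were picked as the highest of 9789, and how high r would run by chance was not tested. TM7SF3 was itself among the 19 genes called in the luminal pregnancy comparison from which S100A6 was chosen.

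**Figure D4:**
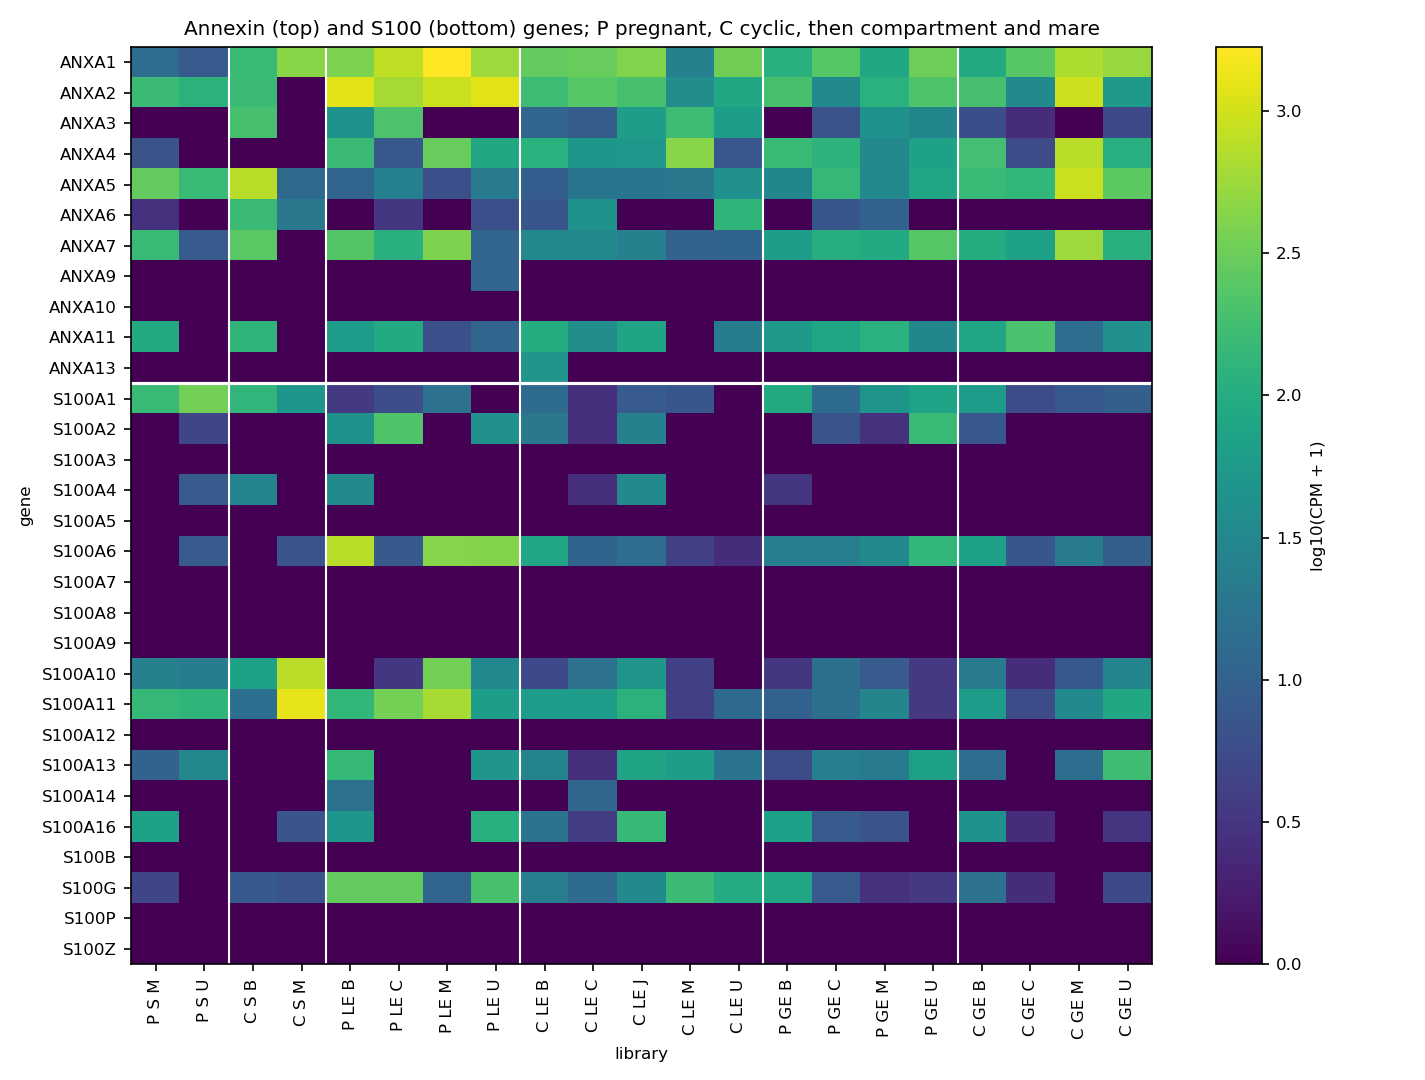
Level of every annexin (top) and S100 gene (bottom) of the count table in each library, as log10(CPM + 1), with pregnant (P) left of cyclic (C) within stroma, luminal and glandular epithelium. S100G is brightest in luminal libraries, and 9 S100 genes and ANXA10 are dark throughout because they had no counts.

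Among the other annexins, 7 were in the count table, none passed the test in any of the 7 comparisons, and ANXA10 had no counts. The most abundant were ANXA7, a calcium-dependent membrane fusion factor, ANXA11, ANXA3 and ANXA6. ANXA7 was 230.4 in mare B, 111 in mare C, 397 in mare M and 10.3 in mare U in pregnant, and 31.1 in mare B, 34.0 in mare C, 24.2 in mare J, 9.38 in mare M and 9.91 in mare U in cyclic luminal epithelium (CPM). Its log2 fold change there was 3.09 ± 1.34 (SE; edgeR quasi-likelihood adjusted p = 0.476), and DESeq2 called it (adjusted p = 0.0355) among 83 genes (1.91%). Under 18 alternative settings, leaving out the pregnant library of mare M among them, the log2 fold change ran from 2.13 to 3.50. ANXA11, which like ANXA7 binds the calcium sensor PDCD6, stood at -0.21 ± 1.57 (SE) and ANXA3 at 0.03 ± 1.51 (SE) in the same comparison, and ANXA6 did not pass the filter.

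Of the other 16 S100 genes, 9 had no counts in any library: S100A3, S100A5, S100A7, S100A8, S100A9, S100A12, S100B, S100P and S100Z. S100G, a vitamin D-dependent calcium buffer of transporting epithelia, was the 1 that passed a test, higher in luminal than in glandular epithelium. It was 279, 281, 10.3 and 191 in pregnant and 22.8, 12.5, 33.6, 156 and 94.2 in cyclic luminal libraries, against 77.5, 7.37, 1.88 and 2.41 in pregnant and 15.6, 1.56, 0 and 4.18 in cyclic glandular libraries (CPM, mares in alphabetical order). The lumen exceeded the glands in all 8 biopsies, with a log2 fold change of 4.17 ± 1.22 (SE; edgeR quasi-likelihood adjusted p = 0.0132). Without mare B, C, M or U in turn the log2 fold change was 4.91, 4.33, 3.61 or 3.78 and the call was lost each time (edgeR adjusted p = 0.0989, 0.121, 0.0539 and 0.107). It was also lost under limma-voom and in pregnant biopsies alone (adjusted p = 0.0906 and 0.253). S100A1, an S100 protein known from muscle, ran highest in stroma at 149 in mare M and 349 in mare U in pregnant, and 133 in mare B and 47.9 in mare M in cyclic libraries (CPM), and did not pass, with 4.88 ± 2.33 stroma minus luminal (SE). S100A13 and S100A16 completed the 4 most abundant, and neither passed.

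Of 18 proteins that act with annexins or S100 proteins, 16 were in the count table, and 1 passed in each of the compartment comparisons. TRPV6, the apical calcium channel that the annexin A2 and S100A10 complex carries to the membrane, was higher in the lumen than in glands in all 8 biopsies. Its levels were 2256, 943, 216 and 2253 in pregnant and 1027, 339, 621, 375 and 329 in cyclic luminal libraries, against 121, 8.50, 5.64 and 101 in pregnant and 21.4, 4.69, 13.6 and 14.6 in cyclic glandular libraries (CPM). Every luminal library was above every glandular library, with a log2 fold change of 5.18 ± 0.54 (SE; edgeR quasi-likelihood adjusted p = 6.84e-19). It was lower in stroma than in the lumen, at -6.54 ± 1.203 (SE; edgeR adjusted p = 2.83e-05), lower in all 4 biopsies, a call that was not made by limma-voom (adjusted p = 0.24) or in either state alone. Between pregnant and cyclic lumen its log2 fold change was 1.39 ± 0.61 (SE), which did not pass (edgeR adjusted p = 0.479).

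PLAT, the tissue plasminogen activator that the annexin A2 complex binds, was higher in stroma than in glands of the same biopsies (edgeR quasi-likelihood adjusted p = 0.0277), with 262 against 2 counts. The stromal over glandular ratio of summed CPM was 242, with an exact 95% counting interval of 66.2 to 2006. It was 134 in mare M and 567 in mare U in pregnant, and 139.5 in mare B and 0 in mare M in cyclic stroma (CPM), against 4.56, 25.5, 0 and 0 in pregnant and 1.65, 0, 0 and 0 in cyclic glands. Stroma was higher in 3 of 4 biopsies and both compartments were at 0 in the cyclic biopsy of mare M. The call was lost without mare B, M or U (edgeR adjusted p = 0.145, 0.375 and 0.778), with no filter on low counts and in pregnant biopsies alone (edgeR adjusted p = 0.112 and 0.19). MYH9, a non-muscle myosin, MYOF, a membrane repair protein, and PDCD6 were the other abundant partners and did not pass. No gene of the list of other EF-hand proteins passed in any comparison, among them the abundant CALM2, a calmodulin gene, and CALU and SDF4, calcium-binding proteins of the secretory pathway.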

How the data were processed

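RNA of 21 laser-captured libraries was sequenced as single-end reads. The submitters' processing notes name Trimmomatic 0.32.2 (trimming) and HISAT2 2.0.3 (alignment). Counting tool, genome build and strand setting: not given in the sources used here. Raw read counts for 24942 gene IDs were deposited and gave all main results. The authors also deposited signal tables of 10307 genes in 21 libraries and 10410 genes in 19, where a value equals the count over 1 library-specific constant; the signal served as an alternative. Entrez IDs were named from RefSeq's horse gene list (TB-T2T assembly), with 21420 of them (85.9%) found, and neighbouring genes were read from the same list. Reads shared between similar or overlapping genes may be split uncertainly.

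Tests were two-sided edgeR 4.0.16 quasi-likelihood F-tests in R 4.3.3 with TMM scaling, filterByExpr (minimum count 10, minimum total 15) and Benjamini-Hochberg adjustment over all genes tested, at 0.05. The SE is the absolute log2 fold change divided by the square root of F. States were compared without a block. Compartments were compared on counts summed per mare, with the mare as a block, and the difference of the pregnancy effects with the biopsy as a block. The mare pairs the libraries by its letter in the labels, although deviations of same-mare libraries from their group means correlated at no more than 0.0509 over 9789 genes. DESeq2 1.42.0, limma 3.58.1 (voom and log2(signal + 1)), other scaling factors, no filter, and leaving out libraries were alternatives. Library total alone as scaling was added after seeing the data. Counting intervals and floors leave out amplification, as the reads carried no molecular identifiers and are not independent molecules.

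Named genes were all members; of the listed annexins, S100 genes, partners and EF-hand proteins, those past the threshold anywhere and the 4 most abundant per list; and the genes of most similar pattern, 3 each for ANXA2 and S100A6 and 1 for each other member. Of the listed genes, ANXA8, ANXA8L1, FPR1 and FPR2 were not analysed here. A gene that the rule on named genes picks is not reported here. Members and lists were chosen with earlier results of these data known. The tests were checked on simulated data.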

Additional observations from a re-analysis of the deposited data

Results flagged for a closer look

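In groups of 4 or 5 libraries, 6 of the 28 combinations of gene and group held 1 library set apart from the rest by Dixon's criterion. Its rate of about 1 in 20 groups by chance holds for normally distributed values. These CPM were used unlogged and were not checked for that, so no excess over chance is read from the 6. The cyclic glandular library of mare M had 955 CPM of ANXA2, with the next library at 187 CPM. The same library had 921 CPM of ANXA5, with the next at 257 CPM. Mare M also gave the highest ANXA4 level in cyclic luminal epithelium, 447 CPM, with the next library at 114 CPM, and the highest S100A10 level in pregnant luminal epithelium, 345 CPM, with the next at 31.0 CPM. For S100A6, the cyclic luminal library of mare B stood at 78.9 CPM above a next value of 13.05 CPM. The pregnant glandular library of mare U stood at 138 CPM of S100A6, above a next value of 33.9 CPM. Of these 6 values, 3 came from the 2 libraries that the authors left out of 1 of their tables, in which ribosomal RNA took 0.453% and 0.351% of the counts.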

How the results depend on the processing

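Of 601 log2 fold changes of the 7 genes recomputed under alternatives, 24 moved by more than the spread between replicates and 1 changed sign after a call. That 1 was ANXA2, luminal minus glandular, at -0.037 in cyclic biopsies alone. Outside the luminal pregnancy comparison, 11 were no longer past the threshold and 8 newly passed it. The other 557 kept their direction and side of the threshold or moved by less than that spread. For the luminal pregnancy comparison only the shift was judged, so calls lost there are among the 557 or the 24. ANXA2 was not past the threshold there in 8 of 18 alternatives, and S100A6 in 8 of 17. In the luminal pregnancy comparison (19 genes, 2 members called), 12 genes passed with no filter, 83 with DESeq2, 1 with limma-voom, 12 with the mare as a block, 0 with limma on the deposited signal and 37 without the libraries left out of 1 deposited table; members called were 0 with no filter, 0 with limma-voom, 0 on the deposited signal and 1 with the block. DESeq2 called 1 other annexin, and 1 partner and 1 EF-hand gene were called without the libraries left out of that table. Only 1 of those libraries, the pregnant one of mare M, is in this comparison. That fit is therefore the same as leaving out this library alone and enters the alternatives again. In glands the same holds for the cyclic library of mare M. Leaving out 1 library at a time gave 2 to 37 genes, 0 to 2 members, 0 to 1 partners and 0 to 1 EF-hand genes. In glands (3 genes) the count was 0 with RLE factors, 5 with library totals alone, 34 with no filter, 0 with DESeq2, 0 with the block, 0 on the deposited signal, 5 without the libraries left out of 1 table, and 0 to 28 leaving out 1 library. In stroma (0 genes, 88 at an unadjusted p under 0.05 in edgeR, 0 with DESeq2) it was 2 with no filter and 0 to 2 leaving out 1 library; with only mare M in both states, a block was not run. Luminal minus glandular (498 genes) gave 1009 with DESeq2, 247 with the biopsy as block, 120 in cyclic biopsies, 130 in pregnant biopsies and 230 to 411 leaving out 1 mare. Members called there were 1 with limma-voom, 1 with no block, 0 with the biopsy block, 0 in cyclic biopsies and 0 to 2 leaving out 1 mare. The call of S100G gave a count of other S100 genes of 0 with limma-voom and 0 in pregnant biopsies. It was also 0 without the 2 libraries, which took out both biopsies of mare M, and 0 to 0 leaving out 1 mare. Partners called were 2 with no filter and 2 with DESeq2. Stroma minus luminal (61 genes) gave 39 with library totals, 29 with no filter, 474 with DESeq2, 3 with limma-voom, 34 with the biopsy block, 8 in cyclic biopsies, 0 in pregnant biopsies and 18 to 36 leaving out 1 mare. There DESeq2 called 3 members, 1 other S100 gene and 3 partners, no block gave 1 member, and partners were 0 with limma-voom, 0 in cyclic and 0 in pregnant biopsies. Stroma minus glandular (63 genes) gave 20 with library totals, 20 with no filter, 526 with DESeq2, 223 with limma-voom, 99 with no block, 3 in cyclic biopsies, 0 in pregnant biopsies and 0 to 45 leaving out 1 mare. DESeq2 called 1 member, 2 partners and 1 EF-hand gene, and limma-voom 1 member; partners were 0 with no filter, 0 with the biopsy block, 0 in cyclic biopsies, 0 in pregnant biopsies and 0 to 0 leaving out 1 mare. The difference of pregnancy effects (1 gene) gave 78 with DESeq2, 0 without ribosomal RNA genes and 8 with no block, and DESeq2 called 1 member. The causes were not tested. Calls that were higher in stroma than glands were 60.3% of the total with TMM, 75% with RLE factors and 75% with library totals; against the lumen they were 32.8% with TMM and 17.9% with library totals. Other scaling moved the median log2 fold change of all genes by over 0.1 in several comparisons, most for stroma in pregnancy, 0.26 with TMM and -0.31 with library totals. With 2 stromal libraries a state and stromal totals down to 138441 counts, even large differences could go undetected in stroma.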
